A study of Sus scrofa with 23 samples.

Results

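The genes described here encode subunits of the mitochondrial respiratory chain and of ATP synthase. They were chosen by symbol: any gene whose probe annotation gives a single symbol beginning with NDUFA, NDUFB, NDUFC, NDUFS, NDUFV, UQCR, SDH followed by A to D, COX4 to COX8 or ATP5, with CYC1 added and the assembly factors named NDUFAF left out. Of 6765 genes with a single symbol on the array, 60 met this rule. They comprise 32 genes of complex I, 4 of complex II, 2 of complex III (UQCRB and UQCR10), 8 of complex IV and 14 of ATP synthase. For a gene with several probe sets, the one whose mean over the 23 samples was highest was read, and no filter on low values was applied, so all 60 entered every test.

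The respiratory chain passes electrons from NADH (at complex I) and from succinate (at complex II) to ubiquinone, on through complex III and cytochrome c to complex IV, and there to oxygen. Complexes I, III and IV pump protons out of the mitochondrial matrix, and ATP synthase makes ATP from their return. A few core subunits of the chain are encoded in mitochondrial DNA, and the genes here are nuclear. In striated muscle several complex IV subunits exist in a muscle form and a form made in most tissues, and muscle is known for exchanging one for the other as it matures.

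The samples came from pigs at 4 stages: 94 dpc (before birth, 5 samples) and 1, 28 and 188 dpn (after birth, 6 samples each), read here as days post conception and days post natum. All were offspring of German Landrace gilts that had been given a low-protein diet in gestation, a treatment shared by every group, so that the comparisons are between ages and none is between diets. The offspring of each stage came from 3 gilts. The labels do not say which animals shared a dam, and p-values that take the samples as independent may be too small for that reason. Each sample was hybridised to 1 porcine Affymetrix array, and a value is the signal of a probe set, a linear intensity whose precision is limited by the number of arrays. Probe sets differ in sensitivity, so signals are compared between samples and never between genes.

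The label of each sample gives liver as its tissue, but the series title speaks of muscle. Of 8 measured skeletal muscle markers, all had signal in every sample, with a summed signal of 210000 to 241000 at 94 dpc, 238000 to 470000 at 1 dpn, 347000 to 584000 at 28 dpn and, at 188 dpn, 504000 to 674000. The summed signal of 9 hepatocyte markers was 11700 to 37400 at 94 dpc, 4590 to 19400 at 1 dpn, 1940 to 30500 at 28 dpn and, in the oldest samples, 2610 to 23000. The samples are called samples labelled liver here. The control ratio of 5' to 3' signal for GAPDH was at most 0.148 in 1 dpn replicates 2, 4 and 5, and no other sample of any stage was below 1.09. The same ratio for EF1a was 0.101 to 0.125 in these 3 samples and 0.458 to 1.08 in the other 20. For actin it was 1.01, 0.817 and 0.985 in replicates 2, 4 and 5, and 1.21, 1.2 and 0.999 in 1 dpn replicates 1, 3 and 6. Such a ratio tells how far the labelled copies of a transcript reach back from its 3' end. Results that involve 1 dpn are also given without the 3 samples of low GAPDH ratio where they differ.

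The 60 genes had their lowest mean at 94 dpc in 53 cases and their highest mean at 1 dpn in 43. A further 13 were highest at 28 dpn (among them SDHB and SDHD), 3 at 188 dpn (ATP5J, NDUFS6 and SDHC) and 1 at 94 dpc (COX6A1). Averaged over all 60 genes, log2(signal + 16) was 12.92 ± 0.15 (SD, n = 5) at 94 dpc, 13.95 ± 0.37 (n = 6) at 1 dpn, 13.71 ± 0.06 (n = 6) at 28 dpn and 13.45 ± 0.17 (n = 6) at 188 dpn. In this mean over all 60 genes, 1 dpn had both the highest level and the widest spread.

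**Figure D1:**
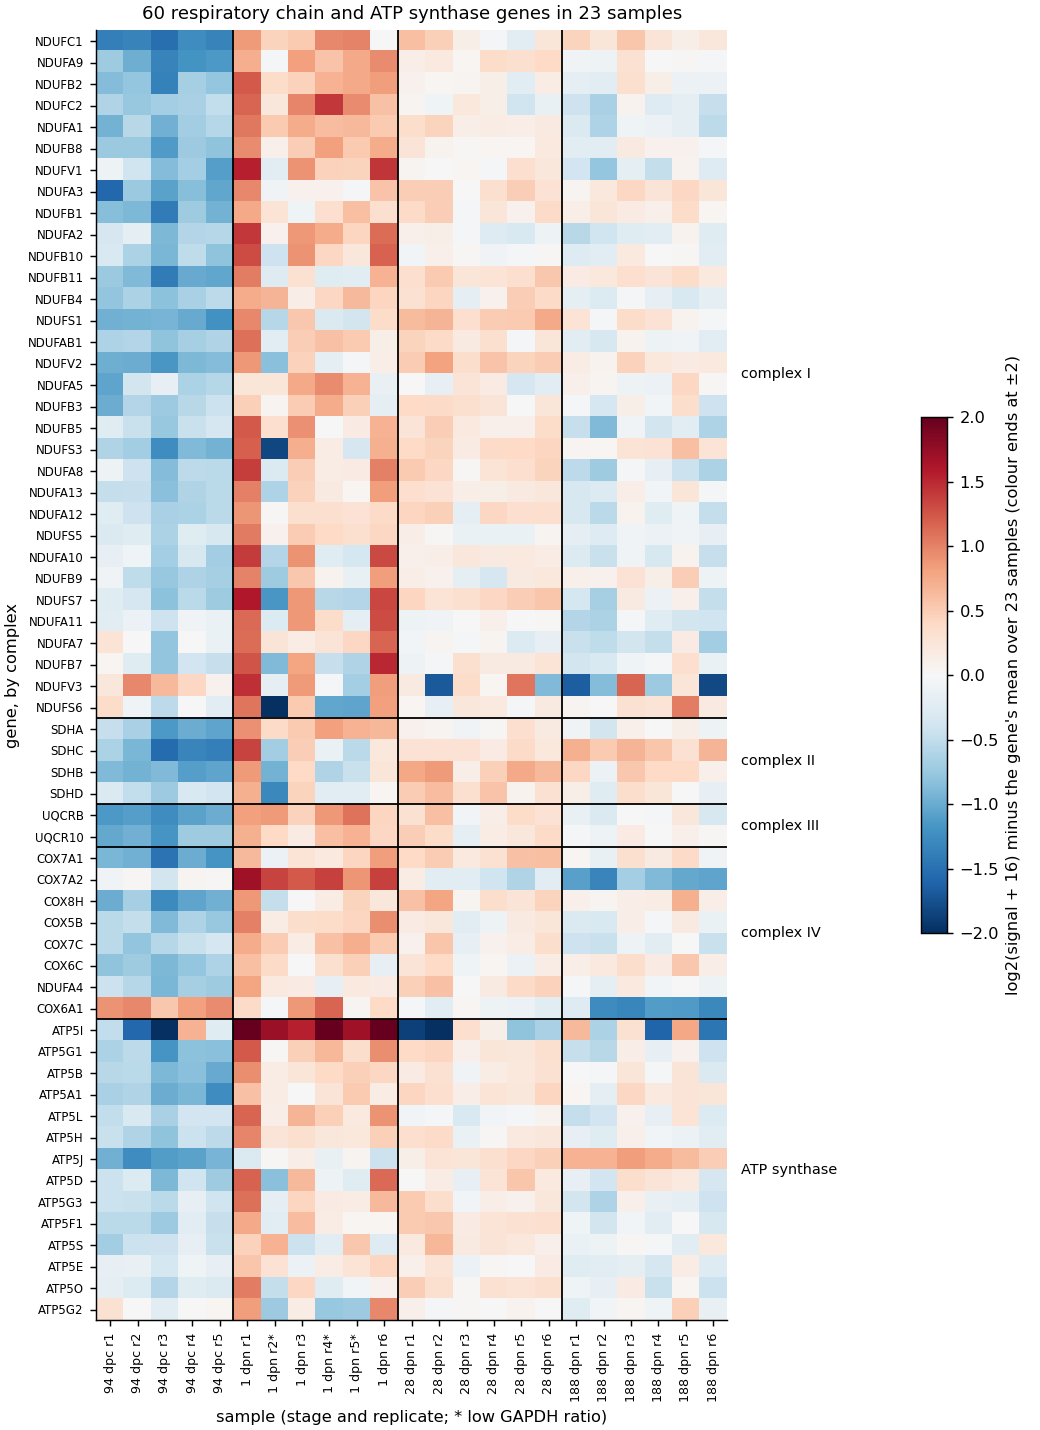
Each row is a gene, grouped by complex and ordered by its change from 94 dpc to 1 dpn, and each column is 1 of the 23 samples. The colour gives log2(signal + 16) minus the gene's mean over all samples. At 94 dpc 53 of the 60 genes are at their lowest mean, COX6A1 runs the other way, and the starred 1 dpn samples of low GAPDH ratio are paler in many complex I and II rows.

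The first comparison set the subunits at 1 dpn against those of the fetus at 94 dpc. A change between these stages is called a change at birth for short. The interval also holds the fetal life that followed 94 dpc, and no sample shows when within it a change occurred. Of the 60 genes, 52 rose at 1 dpn, 0 fell and 8 did not pass (limma, adjusted p under 0.05 over all probe sets). Among all 6765 genes, 13.7% were called higher and 19.5% lower in this comparison. The median change of the 60 was 1.04 on the log2 scale, a 2.05-fold difference, beside -0.06 for all genes. Every complex took part: 28 of 32 genes of complex I rose (median log2 change 1.03), 3 of 4 of complex II (1.08), 2 of 2 of complex III (1.64), 7 of 8 of complex IV (1.13) and 12 of 14 of ATP synthase (0.90). Quantile normalization lowered the median of the 60 to 0.63 and kept 41 of the rises, where 16.9% of all genes were called higher, and all 41 also passed with the arrays centred on their medians. In a tissue sample, more cells rich in mitochondria and more RNA per cell cannot be told apart.

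From 1 to 28 dpn, 12 of the 60 genes fell, 2 rose and 46 did not pass, where 10.7% of all genes were called lower and 13.5% higher. The median change was -0.21, beside 0.02 for all genes. By complex, 7 genes of complex I fell, 1 of complex II (SDHA), 1 of complex III (UQCRB), 1 of complex IV (COX7A2) and 2 of ATP synthase (ATP5I and ATP5L), and the 2 that rose were SDHB and ATP5J. The count depended on 1 dpn: without its 3 samples of low GAPDH ratio 26 genes were called lower and 1 higher, with a median of -0.51, where 9.06% and 10.5% of all genes were called. The 2 rises were 4 without 1 dpn replicate 1, 1 without 1 dpn replicate 2, 5 or 6 or 28 dpn replicate 1 or 3, and 0 without 1 dpn replicate 4 or 28 dpn replicate 2, 4, 5 or 6. Without 28 dpn replicate 4 the count of falls was 7, and with only the samples of 1 and 28 dpn in the fit it was 5.

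From 28 to 188 dpn, 8 of the 60 fell and 0 rose, and the median change was -0.27 beside -0.06 for all genes. In this comparison 12.5% of all genes were called lower and 5.79% higher. With all samples in the fit, the share of subunits that fell was thus close to that of all genes. When the 1 dpn samples of low GAPDH ratio were left out of the fit, 13 fell and 1 rose, where 15.7% and 8.32% of all genes were called. With only the samples of 28 and 188 dpn in the fit, 13 also fell and 1 rose. The median stayed between -0.31 and -0.23 when single samples were left out, whereas the count of falls was 5 without 28 dpn replicate 1 or replicate 6, 3 without 188 dpn replicate 2 and 4 without 188 dpn replicate 6. With the arrays centred on their medians 3 genes fell (COX6A1, COX7A2 and NDUFB5) and 1 rose, where 9.87% and 7.73% of all genes were called.

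Between the first and the last stage, 31 of the 60 genes were higher at 188 dpn than at 94 dpc, 2 were lower (COX6A1 and COX7A2) and 27 did not pass. Of all genes, 19.5% were called higher and 27.6% lower. All 31 were among the 52 that had risen by 1 dpn, a comparison that shares the 94 dpc samples. The median of the 60 genes was 0.52 beside -0.08 for all genes, but 0.04 after quantile normalization, under which 18 genes were higher and 6 lower and 23.3% and 22.8% of all genes were called. In 17 genes the call of higher held under the deposited scaling, quantile normalization and centring alike, and both falls held under all 3. Scaling also moved the whole array: the median of all probe sets between 94 dpc and 188 dpn was -0.08 with the deposited values, 0.08 with quantile normalization and 0.22 with centring, and between 94 dpc and 1 dpn it was -0.11, 0.04 and 0.17. Of the probe sets called, 31.2% were higher at 1 dpn than at 94 dpc with the deposited values, against 47.3% with quantile normalization and 59.4% with centring, and at 188 dpn these shares were 36.3%, 48.8% and 56.9%.

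Followed through the 3 steps in order, 33 genes rose at birth and passed no later test. Another 10 rose and then fell by 28 dpn, 5 rose and fell between 28 and 188 dpn, and 2 (COX7A2 and NDUFA1) fell in both later steps. ATP5J and SDHB rose in both of the first 2 steps. COX6A1 was called in the last step alone, and 7 genes were called in none (ATP5G2, ATP5O, NDUFB7, NDUFS6, NDUFS7, NDUFV3 and SDHD).

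**Figure D2:**
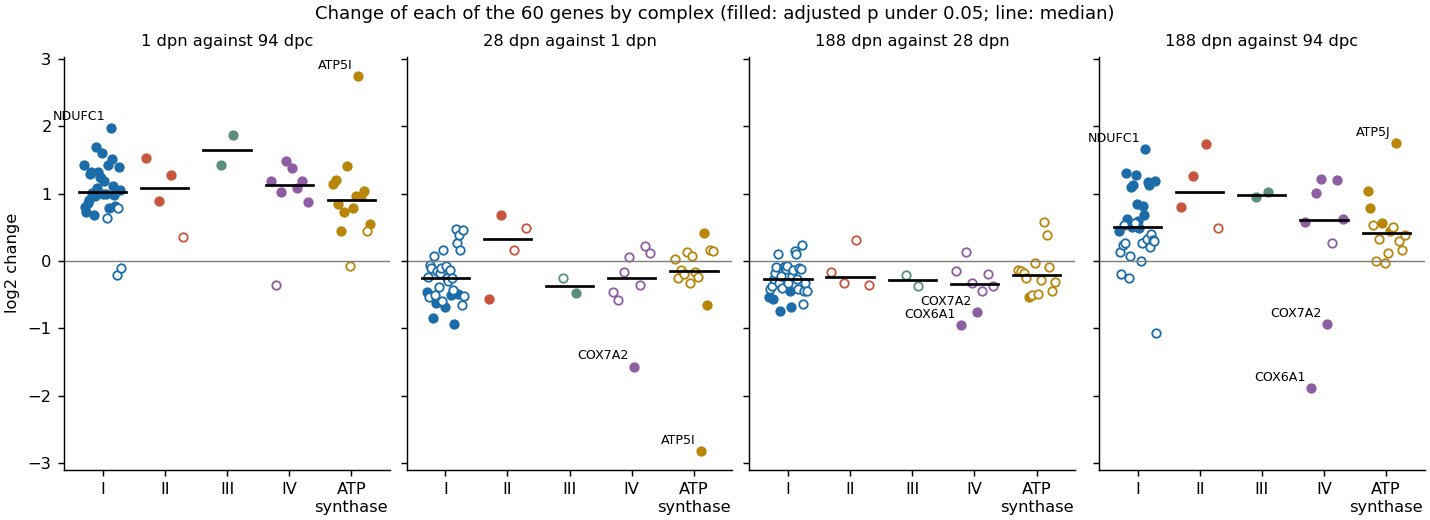
Each point is the log2 change of 1 gene between a pair of stages, grouped by complex, with filled points for genes called at an adjusted p under 0.05 and a line at the median of the complex. In the first panel 52 of 60 points are filled and all filled ones lie above 0, and in the last panel COX6A1 and COX7A2 are the filled points below 0.

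Complex I, which oxidises NADH, was represented by 5 of its core subunits and 27 accessory ones. With all samples, the largest rise of the complex at birth was that of NDUFC1, a small accessory subunit of the membrane arm. Without the 3 samples of low GAPDH ratio, NDUFV1 (1.92) and NDUFA9 (1.90) came before it (1.81). Its signal was 2920, 2970, 2630, 3160 and 2980 in the 94 dpc samples and 7490 to 14900 at 1 dpn (median 12200), with 6400 to 11400 at 28 dpn (median 8520) and 8120 to 11100 at 188 dpn (median 8940). Every sample taken after birth lay above every sample taken before, and the postnatal stages overlapped. The log2 change at birth was 1.98 ± 0.19 (SE, 3.96-fold, adjusted p = 9.6e-08), and at 188 dpn NDUFC1 was still 3.17-fold higher than at 94 dpc (log2 change 1.66 ± 0.19, adjusted p = 2e-07).

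NDUFA9, an accessory subunit where the arms of the complex meet, rose 3.25-fold at birth (signal 4740 ± 827 at 94 dpc and 15600 ± 3290 at 1 dpn, adjusted p = 2.5e-07). NDUFB2, of the membrane arm, rose 3.04-fold (10700 ± 1810 and 32800 ± 7350, adjusted p = 6.1e-07). Of the core subunits, NDUFV1 (log2 change 1.39), NDUFS1 (1.11), NDUFV2 (1.05) and NDUFS3 (0.98) rose and NDUFS7 (0.78 ± 0.37, adjusted p = 0.12) did not pass. NDUFV1 carries the flavin that takes the electrons of NADH. The other 3 complex I genes that did not pass at birth were NDUFB7 (0.64), NDUFS6 (-0.21) and NDUFV3 (-0.10).

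From 1 to 28 dpn, 7 genes of complex I fell with all samples in the fit, each an accessory subunit. Without the 3 samples of low GAPDH ratio, the core genes NDUFV1 (-1.19, adjusted p = 0.0013) and NDUFS7 (-0.85, adjusted p = 0.0096) were also called lower, and whether core and accessory genes differ was not tested. The largest fall was that of NDUFC2, the partner of NDUFC1 in the membrane arm. Its signal was 10800 to 24600 at 1 dpn (median 18100) and 7010 to 10700 at 28 dpn (median 9180), without overlap (1.90-fold lower, adjusted p = 0.001). NDUFA2, of the arm that holds the NADH site, fell 1.81-fold (adjusted p = 0.0036) and NDUFB2 1.61-fold (adjusted p = 0.0058). NDUFA7, NDUFB8, NDUFS5 and NDUFA1 fell by 0.63, 0.50, 0.49 and 0.46 on the log2 scale. The core genes NDUFS1 and NDUFV2 had changes of 0.47 ± 0.21 and 0.46 ± 0.20 (adjusted p = 0.13 each), which did not pass and were -0.05 and 0.04 without the samples of low ratio.

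Between 28 and 188 dpn complex I had 5 falls: NDUFA8 (-0.75 ± 0.23, adjusted p = 0.028), NDUFB5 (-0.69 ± 0.20, adjusted p = 0.019), NDUFA12 (-0.57 ± 0.17, adjusted p = 0.023), NDUFA1 (-0.53) and NDUFB4 (-0.45). All are accessory subunits, as are 27 of the 32 complex I genes. The 5 core genes had 0 calls and a median change of -0.41, beside -0.23 for the accessory ones, a difference that was not tested. The call of NDUFA8 was lost without 28 dpn replicate 1 (adjusted p = 0.058) or 6 (0.054) or 188 dpn replicate 2 (0.065) or 6 (0.061), that of NDUFA12 without 188 dpn replicate 2 (0.058) or 6 (0.056) and that of NDUFB5 without 188 dpn replicate 2 (0.054).

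Over the whole span, 16 of the 32 genes of complex I were higher at 188 dpn than at 94 dpc and 0 were lower, and the median change was 0.50 but 0.01 after quantile normalization, which left 8 genes higher and 2 lower (NDUFA7 and NDUFA11). After NDUFC1, the largest were NDUFA3 (1.31 ± 0.19, adjusted p = 8e-06) and NDUFB11 (1.27 ± 0.21, adjusted p = 3e-05), both of the membrane arm. NDUFS1, NDUFV2 and NDUFS3, 3 of the 5 core genes, were higher by 1.17, 1.19 and 1.13. NDUFB5 (0.00) and NDUFA8 (0.07) had risen at birth and did not pass over the whole span (SE 0.20 and 0.24).

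Complex II, succinate dehydrogenase, is also an enzyme of the Krebs cycle. SDHA carries the catalytic site, SDHB the iron-sulfur clusters, and SDHC and SDHD anchor the enzyme in the membrane. The median change of the 4 genes from 1 to 28 dpn was 0.32 with all samples and -0.20 without those of low GAPDH ratio, when only SDHA was called (-0.60, adjusted p = 0.03), and differences among the 4 were not tested. SDHA rose 2.88-fold at 1 dpn (signal 8630 ± 1810 and 24700 ± 3250, adjusted p = 4e-07) and then fell 1.48-fold by 28 dpn (16600 ± 1680, adjusted p = 0.012), whereas the fit with only those stages gave adjusted p = 0.055 for the fall and the mean of its probe sets 0.31.

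SDHB rose 1.86-fold at birth (adjusted p = 0.0093) and again 1.61-fold by 28 dpn (adjusted p = 0.048). Its signal was 8510 to 9860 at 94 dpc (median 9470), 9500 to 32900 at 1 dpn (median 17500), 20000 to 32900 at 28 dpn (median 29600) and 16800 to 26600 at 188 dpn (median 23900). The 1 dpn samples spanned the range from the fetal samples to the highest of 28 dpn. The second rise was not called without the 3 samples of low GAPDH ratio (log2 change 0.11, adjusted p = 0.79), nor without any of 8 single samples: 1 dpn replicates 2, 4 and 5 (adjusted p = 0.12, 0.12 and 0.10) and 28 dpn replicates 1, 2, 4, 5 and 6 (0.088, 0.095, 0.063, 0.087 and 0.08). The rise at birth was not called after quantile normalization (0.40, adjusted p = 0.17) or with only the 2 stages in the fit (adjusted p = 0.056). Nor was it called from the mean of its probe sets (0.32, adjusted p = 0.16). The second probe set of SDHB (mean signal 313) had uncalled changes of -0.26 at birth and -0.39 over the span (adjusted p = 0.39 and 0.15).

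SDHC had the largest change of complex II over the whole span. Its signal was 3440, 2840, 1830, 2140 and 2060 in the 94 dpc samples, 3300 to 13600 at 1 dpn (median 5520), 6010 to 6990 at 28 dpn (median 6500) and 6580 to 8740 at 188 dpn (median 8220). The fetal and the 188 dpn samples did not overlap, and the 1 dpn samples overlapped with both. It rose 2.40-fold at birth (log2 change 1.27 ± 0.26, adjusted p = 0.00088) and was 3.31-fold higher at 188 dpn than at 94 dpc (1.73 ± 0.26, adjusted p = 1.2e-05). SDHD did not pass at birth (0.35 ± 0.25, adjusted p = 0.33), and did so without the 3 samples of low GAPDH ratio (0.83, adjusted p = 0.0036). At 188 dpn, SDHA and SDHB were higher than at 94 dpc by 0.80 and 1.26, and SDHA lost the call after quantile normalization (0.30, adjusted p = 0.14).

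Complex III, which hands electrons from ubiquinone to cytochrome c, rose by a median of 1.64 at birth with all samples and 1.52 without those of low GAPDH ratio, with 2 genes behind these values. UQCRB is a subunit next to the site that binds ubiquinone. Its signal was 7490, 7680, 6970, 7880 and 8290 in the 94 dpc samples, 22400 to 35200 at 1 dpn (median 29600), 15900 to 25100 at 28 dpn (median 20400) and 13300 to 19300 at 188 dpn (median 15600). All postnatal samples lay above all fetal ones. UQCRB rose 3.65-fold at birth (1.87 ± 0.16, adjusted p = 2.8e-08), and at 188 dpn it was 2.03-fold above 94 dpc (1.02 ± 0.16, adjusted p = 2.1e-05).

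UQCR10, a small subunit of complex III, rose 2.67-fold at birth (signal 12300 ± 1750 and 32900 ± 4690, adjusted p = 7.9e-07). It was 1.93-fold above 94 dpc at 188 dpn (23600 ± 1550, adjusted p = 3.8e-05), a call lost after quantile normalization (0.39, adjusted p = 0.056). The fall of UQCRB from 1 to 28 dpn (-0.48 ± 0.15, adjusted p = 0.033) was not called without the 3 samples of low GAPDH ratio (-0.30, adjusted p = 0.28), nor without 1 dpn replicate 2, 4 or 5 (0.052, 0.064 and 0.077) or 28 dpn replicate 3, 4 or 6 (0.083, 0.069 and 0.053). In these 2 genes the mean of the samples of low ratio was above that of the other 1 dpn samples, by a median of 0.25 on the log2 scale. For UQCR10 the samples overlapped, with 30400, 35000 and 37600 at low ratio and 37700, 25900 and 30800 in the others.

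Complex IV, cytochrome c oxidase, showed opposite changes among its genes. COX7A1 is the muscle and heart form of one small subunit and COX7A2 its form in most tissues. COX8H is the muscle and heart form of another, and COX6A1 is the general form of a further subunit. NDUFA4, once listed under complex I, is counted here because it is known as a subunit of complex IV.

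The signal of COX7A1 was 15500, 14900, 10500, 14700 and 12800 in the 94 dpc samples, 27000 to 51800 at 1 dpn (median 37200), 33300 to 44100 at 28 dpn (median 40000) and 26200 to 37900 at 188 dpn (median 31400). All postnatal samples exceeded all fetal ones, and the postnatal stages overlapped. It rose 2.79-fold at birth (1.48 ± 0.18, adjusted p = 2e-06), changed by 0.06 ± 0.17 to 28 dpn and by -0.32 ± 0.17 to 188 dpn, neither of which passed (adjusted p = 0.87 and 0.25), and was 2.33-fold above 94 dpc at 188 dpn (1.22 ± 0.18, adjusted p = 6.7e-06).

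The signal of COX7A2 was 9980, 10600, 8070, 10900 and 10600 in the 94 dpc samples, 19200 to 34000 at 1 dpn (median 26800), 6910 to 11600 at 28 dpn (median 8890) and 4170 to 6530 at 188 dpn (median 5080). The 1 dpn samples stood above all others and the 188 dpn samples below all others. It rose 2.60-fold at birth (1.38 ± 0.17, adjusted p = 3.3e-06), fell 2.97-fold by 28 dpn (-1.57 ± 0.16, adjusted p = 7.8e-07) and a further 1.69-fold by 188 dpn (-0.76 ± 0.16, adjusted p = 0.0027). At 188 dpn it was 1.92-fold below 94 dpc (-0.94 ± 0.17, adjusted p = 0.00011).

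The difference between COX7A1 and COX7A2 within an array does not depend on the scaling to that array's mean. It says that the pair changed unequally, and not which transcript was more abundant. The log2 difference COX7A1 minus COX7A2 was 0.44 ± 0.14 in the 94 dpc samples (SD, n = 5) and 0.54 ± 0.38 in those of 1 dpn (n = 6), which did not differ beyond their spread (change 0.10, exact two-sided permutation test, p = 0.59). It was 2.16 ± 0.32 (n = 6) at 28 dpn, ranging from 1.74 to 2.65 where the 1 dpn samples ranged from 0.02 to 1.03. This 3.08-fold unequal change had exact permutation p = 0.0022, the smallest that 6 against 6 samples can give, or 0.0043 adjusted over 4 comparisons. At 188 dpn the difference was 2.60 ± 0.16 (n = 6), above 28 dpn by 0.44 (exact permutation test, adjusted p = 0.02) and above 94 dpc by 2.16 (4.47-fold unequal, exact permutation test, adjusted p = 0.0043). The direction held for each of the last 3 changes under every alternative run for the pair, several of which could not move it. The partner genes of the other known pairs of forms were not analysed here.

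COX6A1 was the one subunit gene whose mean was highest before birth. Its signal was 7950, 8340, 6180, 7520 and 8240 in the 94 dpc samples, 4210 to 9600 at 1 dpn (median 5580), 3670 to 4370 at 28 dpn (median 3950) and 1720 to 3560 at 188 dpn (median 1860). The samples of 94 dpc and 1 dpn overlapped, and those of 28 dpn lay above all of 188 dpn. The changes to 1 dpn (-0.36 ± 0.21, adjusted p = 0.24) and to 28 dpn (-0.58 ± 0.20, adjusted p = 0.053) did not pass, the former being called after quantile normalization (-0.73, adjusted p = 0.012) and the latter after centring (-0.66, adjusted p = 0.037) and without the 3 samples of low GAPDH ratio (-0.65, adjusted p = 0.043). It fell 1.94-fold from 28 to 188 dpn (-0.95 ± 0.20, adjusted p = 0.0024), and over the whole span it was 3.71-fold lower (-1.89 ± 0.21, adjusted p = 2e-07). The sample at 3560 was 188 dpn replicate 1, and the other 5 lay between 1720 and 1960.

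**Figure D3:**
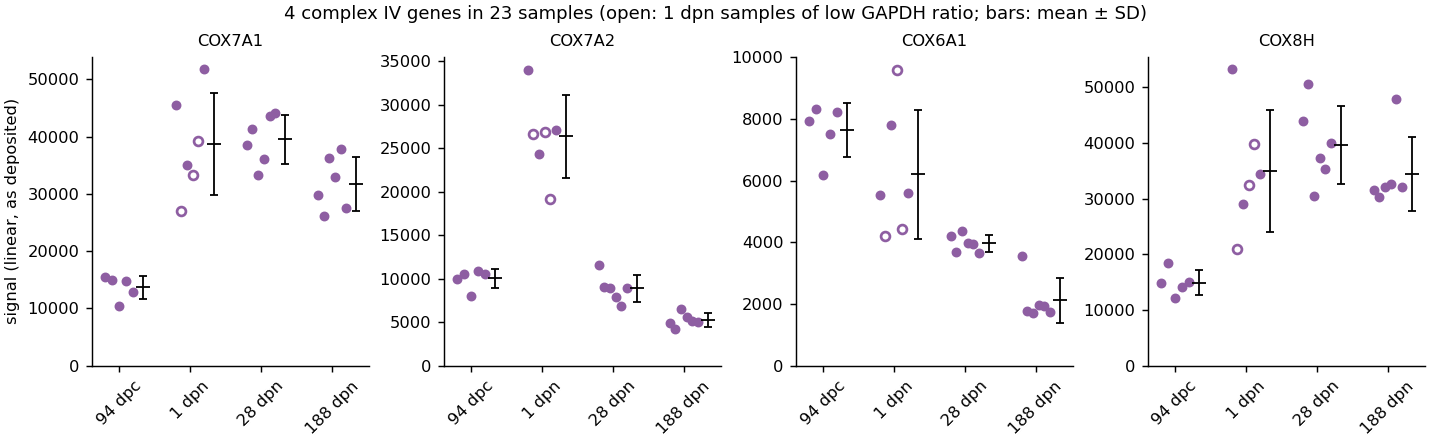
Signals of COX7A1, COX7A2, COX6A1 and COX8H in each sample by stage, on linear axes that start at 0, with mean and SD beside the points and open circles for the 1 dpn samples of low GAPDH ratio. COX7A1 and COX8H stay above their 94 dpc samples after birth, COX7A2 is high at 1 dpn alone (19200 to 34000), and COX6A1 ends at 1720 to 3560.

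The other complex IV genes rose at birth by 0.88 to 1.19 on the log2 scale. COX8H had a signal of 14800, 18500, 12200, 14100 and 15100 in the 94 dpc samples, 21000 to 53400 at 1 dpn (median 33500), 30500 to 50700 at 28 dpn (median 38600) and 30400 to 48000 at 188 dpn (median 32200), again without overlap between the fetal and the later samples. At 188 dpn it was 2.30-fold above 94 dpc (1.20 ± 0.21, adjusted p = 5.3e-05). COX5B, a zinc-binding subunit, rose 2.29-fold at birth (adjusted p = 2.3e-05). COX6C, a small subunit of the membrane part, was 2.02-fold higher at 188 dpn than at 94 dpc (adjusted p = 2.3e-05). NDUFA4 and COX5B were higher by 0.63 and 0.58 over the same span, and COX7C (0.26 ± 0.16, adjusted p = 0.22) did not pass. The genes of complex IV that were higher at 188 dpn than at 94 dpc numbered 5 as deposited and 3 after quantile normalization (COX7A1, COX8H and COX6C).

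ATP synthase was represented by 4 genes of its catalytic head, 3 genes for its rotating c ring and 7 of the stalks and membrane part. The largest change at birth among all 60 genes was that of ATP5I, subunit e, which takes part in pairing the enzyme into dimers. Its signal was 2860, 1350, 676, 6550 and 3410 in the 94 dpc samples, 11900 to 19500 at 1 dpn (median 15400), 669 to 5070 at 28 dpn (median 2430) and 1310 to 6870 at 188 dpn (median 3780). The 1 dpn samples lay above all others, while the other 3 stages covered one range. It rose 6.71-fold at birth (2.75 ± 0.56, adjusted p = 0.00068) and fell 7.08-fold by 28 dpn (-2.82 ± 0.53, adjusted p = 0.00062), and the change from 94 dpc to 188 dpn (0.50 ± 0.56, adjusted p = 0.53) did not pass. The second probe set of ATP5I was dim (mean signal 24.3) and had changes of 0.09 and 0.46 in the first 2 steps (adjusted p = 0.87 and 0.33).

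ATP5L, subunit g and neighbour of subunit e in the dimer, rose 2.05-fold at birth (17700 ± 1600 and 37500 ± 10600, adjusted p = 0.00023) and fell 1.58-fold by 28 dpn (23000 ± 1940, adjusted p = 0.012). The fall was not called with only those stages in the fit (adjusted p = 0.062) or from the mean of its probe sets (-0.18, adjusted p = 0.40).

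ATP5J, a coupling factor of the outer stalk, stood apart in that its mean increased at every step. Its signal was 1890 to 2340 at 94 dpc (median 2130), 3330 to 4890 at 1 dpn (median 4300), 4830 to 6240 at 28 dpn (median 5490) and 6320 to 8030 at 188 dpn (median 7280). Neighbouring stages overlapped only between 1 and 28 dpn. The steps were 0.96 ± 0.14 (adjusted p = 2.9e-05), 0.41 ± 0.14 (adjusted p = 0.039) and 0.38 ± 0.14 (adjusted p = 0.066, not called), and over the span ATP5J was 3.36-fold higher (1.75 ± 0.14, adjusted p = 1.4e-09). The middle step lost its call after centring (0.34, adjusted p = 0.14) and without 1 dpn replicate 1, 4 or 6 (0.062, 0.066 and 0.084) or 28 dpn replicate 2, 3, 4, 5 or 6 (0.057, 0.054, 0.066, 0.076 and 0.089).

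**Figure D4:**
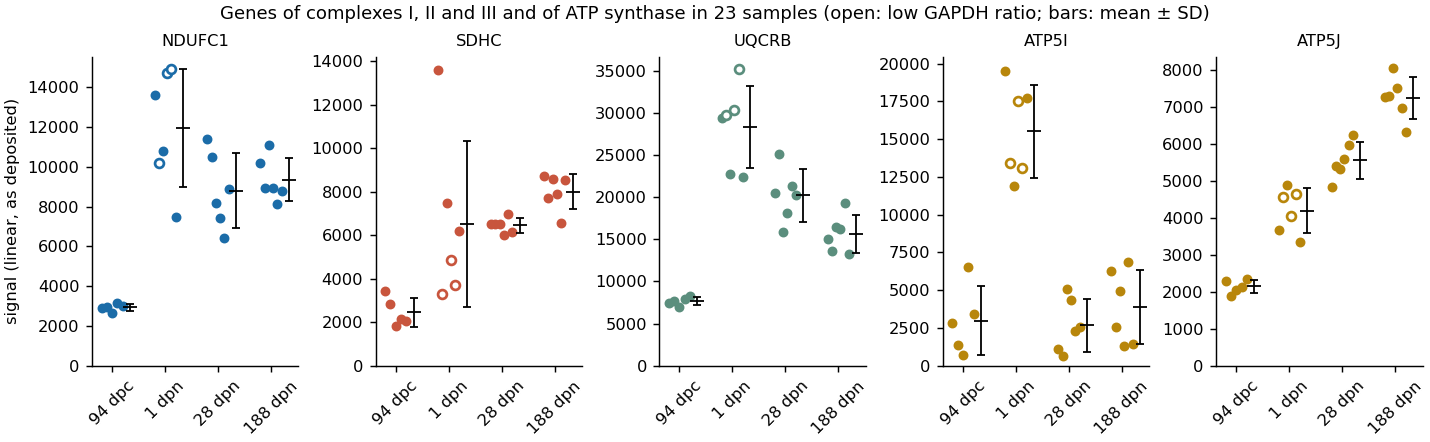
Signals of NDUFC1, SDHC, UQCRB, ATP5I and ATP5J in each sample by stage, on linear axes from 0, with mean and SD beside the points and open circles for the 1 dpn samples of low GAPDH ratio. NDUFC1 and UQCRB are above all 94 dpc samples at every later stage, ATP5I is high at 1 dpn alone (11900 to 19500), and ATP5J ends at 6320 to 8030.

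In the catalytic head, ATP5B (the beta subunit, which holds the active sites) rose 2.29-fold at birth (23100 ± 3410 and 53300 ± 10800, adjusted p = 1e-05) and ATP5A1 (the alpha subunit) 2.23-fold (21500 ± 3860 and 47700 ± 7910, adjusted p = 1.6e-05). At 188 dpn they were still 1.73-fold and 2.06-fold above 94 dpc (adjusted p = 0.00043 and 1.9e-05). ATP5D and ATP5E, the delta and epsilon subunits, rose by 0.85 and 0.44 at birth, and their changes over the whole span were 0.53 ± 0.29 and 0.00 ± 0.15, which did not pass.

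The 3 genes of the c ring encode the same mature protein. ATP5G1 rose 2.66-fold at birth (adjusted p = 1.5e-05) and ATP5G3 1.71-fold (adjusted p = 0.0048), and ATP5G2 (-0.07 ± 0.27, adjusted p = 0.88) did not pass. Without the 3 samples of low GAPDH ratio all 3 were called higher at birth, by 1.68, 1.12 and, for ATP5G2, 0.62 (adjusted p = 0.024). After quantile normalization, however, ATP5G2 was called lower than at 94 dpc both at 1 dpn and at 188 dpn. At 188 dpn only ATP5G1 of the 3 was called higher than at 94 dpc (0.57 ± 0.20, adjusted p = 0.026). It was not among the 17 genes that were higher under all 3 scalings, and the differences between these genes were not tested. In the outer stalk, ATP5F1 (subunit b) fell from 28 to 188 dpn (-0.53 ± 0.17, adjusted p = 0.033), a call lost without 28 dpn replicate 1, 2 or 6 (adjusted p = 0.07, 0.07 and 0.053) or 188 dpn replicate 2, 4 or 6 (0.073, 0.058 and 0.07). Of the 14 genes of ATP synthase, 5 were higher at 188 dpn than at 94 dpc, with a median change of 0.42. After quantile normalization the median was -0.05, with 4 genes higher and 2 lower (ATP5G2 and ATP5O).

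**Figure D5:**
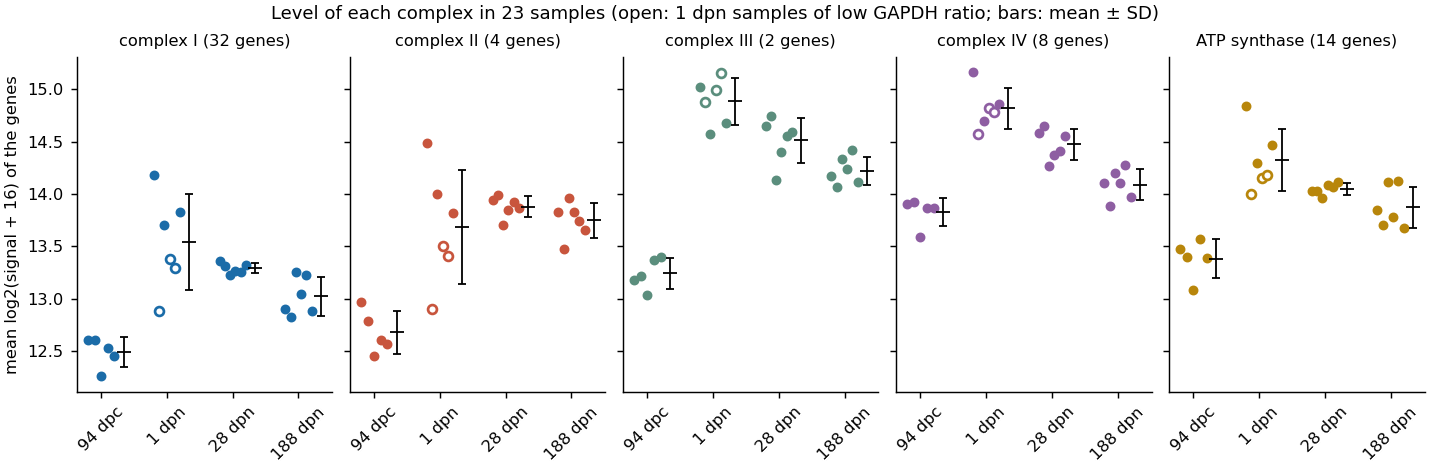
Mean log2(signal + 16) over the genes of each complex, 1 point a sample, by stage, with mean and SD beside the points and open circles for the 1 dpn samples of low GAPDH ratio. Levels can be compared along a panel and not between panels. The 94 dpc samples are the lowest of complexes I, III and ATP synthase. In complexes I and II and in ATP synthase the 28 dpn samples lie close together. The open circles of complexes I and II lie below the other 1 dpn samples.

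The mean levels of complexes I, II and IV and of ATP synthase had their widest spread at 1 dpn (SD 0.46, 0.55, 0.20 and 0.30). Complex III had the same SD at 1 and 28 dpn (0.22). The mean level of complex I was 12.88 to 13.38 in the 3 samples of low GAPDH ratio and 13.70 to 14.18 in the other 3. For complex II these ranges were 12.90 to 13.50 and 13.82 to 14.49, and for ATP synthase 14.00 to 14.18 and 14.30 to 14.84, in each case without overlap. For complex III they were 14.88 to 15.15 and 14.57 to 15.02, and for complex IV 14.57 to 14.82 and 14.70 to 15.16. Of the 60 genes, 48 had a lower mean in the samples of low ratio, with a median difference of -0.43 beside 0.02 for all genes. No test was made of groups defined by the ratio.

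The widest gaps were in NDUFS6 (-2.21), NDUFS7 (-2.03) and NDUFB7 (-1.83). NDUFS7 holds the iron-sulfur cluster that passes electrons to ubiquinone, and NDUFS6 is a zinc-binding accessory subunit. The signal of NDUFS7 at 1 dpn was 39200, 23600 and 32500 in replicates 1, 3 and 6 and 5780, 8830 and 8580 in replicates 2, 4 and 5, where the 94 dpc samples had 7300 to 10900. The signal of NDUFS6 was 7660, 5260 and 6450 against 830, 1760 and 1740. These genes were thus among the highest and the lowest of all stages within 1 dpn.

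Without the 3 samples of low ratio, 56 of the 60 genes rose at birth (where 14.3% of all genes were called higher), with a median of 1.36. Of these, 50 were among the 52 called with all samples, and ATP5G2, ATP5O, NDUFB7, NDUFS6, NDUFS7 and SDHD were added, while ATP5E and ATP5S lost the call. NDUFS7 then rose by 1.80 (adjusted p = 8.2e-06) and NDUFB7 by 1.56 (adjusted p = 3.1e-05). From 1 to 28 dpn, 11 of the 12 falls remained and 15 genes were added, 11 of them in complex I. The part of the ratio in these differences was not tested.

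The other genes of respiration were taken from 4 lists, of which 54 of 103 listed genes were measured. At birth 34 of the 54 rose, 0 fell and 20 did not pass, with a median change of 0.80 beside -0.06 for all genes. Of all genes, 13.7% were called higher and 19.5% lower in this comparison. By list, 13 of 16 genes of the Krebs cycle and pyruvate dehydrogenase rose (median 1.21), 11 of 15 electron and nucleotide carriers (0.85), 10 of 17 assembly factors (0.75) and 0 of 6 regulators of mitochondrial genes (-0.06). The enzymes IDH2 (1.95 ± 0.20), IDH3A (1.90 ± 0.22) and MDH2 (1.75 ± 0.18) led the Krebs cycle list. CYCS, the cytochrome c that links complexes III and IV, rose by 1.82 ± 0.27 (adjusted p = 2.5e-05), CKMT2, a creatine kinase of muscle mitochondria, by 4.27 ± 0.22 and the uncoupling protein UCP3 by 3.11 ± 0.38. COX10, which makes the heme of complex IV, and BCS1L, an assembly factor of complex III, rose by 1.17 and 1.16, and TMEM70, an assembly factor of ATP synthase, by 1.16. From the mean of their probe sets COX10 (0.63, adjusted p = 0.056) and TMEM70 (0.04, adjusted p = 0.89) were not called.

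Of the 6 regulators, PPARGC1A, the coactivator known for driving mitochondrial genes, had a signal of 546 ± 166 (SD, n = 5) at 94 dpc, 531 ± 358 (n = 6) at 1 dpn, 516 ± 157 (n = 6) at 28 dpn and 531 ± 234 (n = 6) at 188 dpn. TFAM, which packages mitochondrial DNA, had 590 ± 120, 642 ± 203, 661 ± 117 and 816 ± 192 at the same stages. Neither was called in any comparison. PPRC1, a relative of PPARGC1A, fell from 1 to 28 dpn (-1.15 ± 0.23, adjusted p = 0.0013) and was lower at 188 dpn than at 94 dpc (-1.21 ± 0.24, adjusted p = 0.00034).

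After birth the 4 lists had 4 rises and 8 falls from 1 to 28 dpn, and 1 rise and 6 falls from 28 to 188 dpn. Of all genes, 10.7% and 12.5% were called lower in these steps, and 13.5% and 5.79% higher. The 6 falls were 2 or 3 without any single 28 dpn sample or without 188 dpn replicate 2, 3, 4 or 6, and the 1 rise was called in none of the fits without a single 28 dpn sample or without 188 dpn replicate 1, 2, 5 or 6. From 1 to 28 dpn the 4 rises were 9 without 1 dpn replicate 1. TMEM126B, an assembly factor of complex I, rose by 1.51 ± 0.18 from 1 to 28 dpn (adjusted p = 3.8e-06). SUCLA2 of the Krebs cycle rose by 1.32 ± 0.21 and IDH3B, of the same cycle, fell by 1.40 on the log2 scale (SE 0.23) in that step. SLC25A6, a carrier that exchanges ADP for ATP across the inner membrane, had a signal of 35200 ± 2540 (SD, n = 5) at 94 dpc, 27900 ± 7910 (n = 6) at 1 dpn, 17000 ± 1900 (n = 6) at 28 dpn and 6460 ± 785 (n = 6) at 188 dpn, a log2 change of -2.45 ± 0.18 over the span (adjusted p = 2.6e-10). Its relative SLC25A4, the form known from muscle and heart, had 19600 ± 1280, 48700 ± 6140, 37900 ± 6010 and 36200 ± 3620 at these stages. Over the span 27 of the 54 genes were higher and 7 lower, where 19.5% and 27.6% of all genes were called.

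Markers of cell types were called in every step. At birth 2 of 8 skeletal muscle markers and 3 of 7 markers of slow fibres, which are rich in mitochondria, rose, while 3 of 4 fibroblast, 1 of 4 erythroid and 2 of 9 hepatocyte markers fell, where 13.7% of all genes were called higher and 19.5% lower. Between 94 dpc and 188 dpn the summed signal of the slow fibre markers went from a range of 135000 to 179000 to one of 264000 to 406000, and that of the fibroblast markers from 27800 to 36300 down to 8060 to 13200. At 188 dpn all 8 skeletal muscle markers and 6 of the slow fibre markers were higher than at 94 dpc, and lower were 3 fibroblast, 4 of 4 erythroid, 3 hepatocyte and 1 of 3 adipocyte markers, while 1 hepatocyte marker was higher (19.5% and 27.6% of all genes were called higher and lower). From 1 to 28 dpn, when 12 subunit genes fell, 3 skeletal muscle, 4 slow fibre and 2 erythroid markers rose (13.5% of all genes). From 28 to 188 dpn, 3 erythroid markers, 1 fibroblast and 1 adipocyte marker fell (12.5% of all genes). In that step 1 of 8 skeletal muscle and 1 of 9 hepatocyte markers rose (5.79% of all genes). The summed signal of the erythroid markers was 1280 to 1770, 831 to 1940, 1200 to 2800 and 613 to 861 at the 4 stages in order, and that of 3 adipocyte markers 3780 to 5880, 3530 to 14700, 5050 to 11000 and 2590 to 3820. Neither of 2 cardiac markers was called in any comparison. None of the measured markers was at 0 in any sample, and the part of cell types in the subunit changes was not tested. Control measures differed between stages as well: the bioD hybridisation control lay between 9680 and 14100 at 94 dpc and between 24600 and 41800 at 1 dpn, the 5' to 3' ratio of actin ranged from 0.817 to 1.21 in the 1 dpn samples and from 1.32 to 1.61 in those of 28 dpn, and the ratio of the Dap spike-in lay between 0.0703 and 0.104 at 28 dpn and between 0.358 and 0.387 at 188 dpn. Within each of these pairs of stages the ranges did not overlap, so that age cannot be told apart from what the controls reflect. Between 94 dpc and 188 dpn, bioD (19000 to 23200 at 188 dpn) and the actin ratio (0.82 to 1.1 and 1.29 to 1.42) did not overlap either. The EF1a ratio at 94 dpc (0.908 to 1.08) lay above 1 dpn (0.101 to 0.824), 28 dpn (0.532 to 0.706) and 188 dpn (0.458 to 0.638). Some pairs of stages did overlap: Dap at 94 dpc (0.0565 to 0.493) overlapped every later stage. The bioD range at 28 dpn (12900 to 27400) overlapped those of 94 dpc and 1 dpn.

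For 12 of the 60 genes the array held further probe sets, 15 in all. Of the 14 that belong to genes called at birth, 4 were called in the same direction, 7 had the same sign without a call and 3 the opposite sign without a call. NDUFV2, a core subunit, rose at birth on each of its 3 probe sets (1.05, 1.62 and 1.35). From 1 to 28 dpn its brightest probe set had a change of 0.46 (adjusted p = 0.13) and its second -1.63 (adjusted p = 3.1e-05). The second probe set of NDUFA1 was lower at 188 dpn than at 94 dpc (-2.98, adjusted p = 0.015) where the first was higher (0.44, adjusted p = 0.027), and another of NDUFS3 rose by 1.32 to 28 dpn and fell by 1.16 on the log2 scale to 188 dpn where its brightest was called in neither step. Which transcripts each of these probe sets reads was not analysed here.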

How the data were processed

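Signals of 23 porcine Affymetrix arrays were analysed. The deposited values are intensities, 1 linear signal for each of 24123 probe sets and array. GCOS 1.1.1 is named per the submitters' processing notes, without its role, and how probes were summarised and background was corrected is not given in the sources used here. The 2% trimmed mean of each array was 500.1 to 500.2, so the values were taken as already scaled, and the median signal was 121 to 169. No step of normalization was added.

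Probe sets were named from the platform annotation where it gave a single symbol (10069 of them). The 124 control probe sets were left out, so that 23999 remained. The scale of all tests is log2(signal + 16), so that folds of dim transcripts are understated. In R 4.3.3, limma 3.58.1 (lmFit, then eBayes, two-sided) fitted a mean for each stage over all 23 arrays, and p-values were adjusted by Benjamini-Hochberg within each comparison over all probe sets, with calls at an adjusted p under 0.05. The COX7A1 and COX7A2 pair was tested with an exact permutation test. The code was tested on simulated data. Figures were drawn with matplotlib 3.10.9, pandas 2.3.3 and Python 3.11.15.

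Replicates are numbered in accession order, as names alone. The members, lists, named genes and alternatives were chosen with earlier results of these data known. Named were up to 3 called genes with the largest change in each direction, complex and comparison, members called against most of their complex, the pair of forms, and up to 3 called genes of each other list. Genes described for the spread at 1 dpn, for their c ring, core or regulator role, for their further probe sets or because they were not called were added after their values were seen. The alternatives were quantile normalization, centring on the median, leaving out dim probe sets, a fit of only the stages compared, a pseudocount of 1 or 64, array weights, the trend and robust options of eBayes, the mean of a gene's probe sets, the GAPDH ratio as a covariate, leaving out the 3 samples with a ratio under 0.5, and leaving out each sample in turn.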

Additional observations from a re-analysis of the deposited data

Results flagged for a closer look

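Values in each stage were examined for a sample far from the others in 28 named subunit genes, the 5 complex means and the COX7A1 and COX7A2 difference, 136 sample groups in all. Of these, 7 held such a sample, where chance marks about 1 in 20 groups, and all values here are log2(signal + 16). COX6A1 was 11.80 in 188 dpn replicate 1, where the other 5 samples of that stage had 10.76 to 10.95. COX8H was 15.55 in 188 dpn replicate 5 (others 14.89 to 15.00), and NDUFA9 was 13.57 in 188 dpn replicate 3 (others 13.17 to 13.31). At 28 dpn, replicate 3 was low for ATP5L (14.25, others 14.50 to 14.63) and for NDUFA12 (13.44, others 13.97 to 14.10), and replicate 5 was low for NDUFB2 (14.03, others 14.29 to 14.39). The mean of complex IV was 13.59 in 94 dpc replicate 3, where the other 4 samples had 13.87 to 13.92.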

How the results depend on the processing

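No paired analysis was possible because the replicate numbers follow accession order and pair no samples. No call of a gene named by rule or of the pair reversed its direction, but values without a call or test changed sign. ATP5G2, outside that rule, was uncalled for 1 dpn against 94 dpc with all samples. It was called lower after quantile normalization and higher without the 3 samples of low GAPDH ratio. The median of complex II for 28 dpn against 1 dpn was 0.32 and became -0.20 without the 3 samples of low GAPDH ratio and -0.26 with the ratio as covariate, and that of ATP synthase was -0.15 and became 0.01 without 1 dpn replicate 1. For 188 dpn against 94 dpc the median of ATP synthase was 0.42 and became -0.05 after quantile normalization. The uncalled change of COX7A1 from 1 to 28 dpn (0.06) was -0.15 without the 3 samples and also below 0 with the covariate, after centring and without 1 dpn replicate 2. Apart from leaving out single samples, 853 of 902 values of named genes kept their side of the threshold, and the other 49 lost the call. The COX7A1 and COX7A2 difference kept its direction and its side of the threshold in all 20 values run. These came from quantile normalization, both pseudocounts, the mean of probe sets and leaving out the 3 samples of low GAPDH ratio. Several of them could not move it. Neither gene had a further probe set, the pseudocounts are small beside these signals, and leaving out 1 dpn samples does not touch differences between other stages. Where a count moved, the cause was not tested. For 1 dpn against 94 dpc, the median of the subunits was 0.63 after quantile normalization (2 subunits and 1 other respiratory gene lower), 1.36 without the 3 samples of low GAPDH ratio and 1.40 with the ratio as covariate (1 other respiratory gene lower in each). For 28 dpn against 1 dpn, subunits called lower were 26 without the 3 samples and 27 with the covariate (medians -0.51 and -0.55), 20 without dim probe sets and 5 with only the stages compared, which left 3 other respiratory genes lower. Subunits called higher there were 1 without the 3 samples, with the covariate, array weights or a pseudocount of 1, and 0 after centring or with only the stages compared. Other respiratory genes called higher were 2 without the 3 samples or with the covariate, and 9 from the mean of all probe sets. For 188 dpn against 28 dpn, subunits called lower were 13 without the 3 samples, with the covariate or with only the stages compared, and 3 after centring. One subunit, 1 in each case, was higher under 8 settings: those 3, centring, array weights, leaving out dim probe sets, eBayes with trend and a pseudocount of 64. Other respiratory genes lower were 12 without the 3 samples or with only the stages compared, 11 without dim probe sets, 10 with array weights and 2 after centring, and 0 were higher with array weights or a pseudocount of 1. For 188 dpn against 94 dpc, the median was 0.81 after centring and 0.04 after quantile normalization (18 subunits higher and 6 lower).

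Leaving out single samples, subunits called higher in the 4 comparisons, in the order above, were 45 to 55, 0 to 4, 0 and 26 to 31, and lower 0, 7 to 17, 3 to 9 and 2 to 3. The medians were 0.96 to 1.13, -0.31 to -0.10, -0.31 to -0.23 and 0.46 to 0.56. Other respiratory genes called higher were 31 to 37, 3 to 9, 0 to 1 and 26 to 28, and lower 0 to 1, 7 to 9, 2 to 5 and 7. For 1 dpn against 94 dpc the 1 was found without 1 dpn replicate 1, as were the 4 subunits and the 9 other genes for 28 dpn against 1 dpn. No measure of signal over background was used here, so no limit of detection was set.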
